A study of Homo sapiens with 2 samples.

Results

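The collagen genes are the genes whose symbol is COL, a type number, A and a chain number, and they were taken as every probe set annotated to exactly 1 such symbol. This gave 83 probe sets for 36 genes, among 36289 probe sets and 16716 genes analysed. The values used end partway through the identifiers of the array, so a gene may have further probe sets that were not analysed. Both samples are the human cell line written GM06690 in the titles and GM06990 in the growth protocol, a B-lymphoblastoid line made immortal with Epstein-Barr virus. They form 1 untreated group with 2 replicates, each on its own Affymetrix U133 Plus 2.0 array. The cells were kept in medium with fetal calf serum. Nothing in the labels tells whether each replicate was a culture of its own, so their spread may be purely technical. There is no second condition, so no p-values are given.

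Collagens are the main structural proteins of the extracellular matrix. Each molecule is a triple helix of chains in which glycine recurs at regular steps, and many types are built from chains of different genes that must be made in the same cell. Fibrillar types form the fibres of skin, bone and cartilage, type IV forms the sheets of basement membranes, and fibril-associated types decorate the fibres. Fibroblasts, cartilage and bone cells and epithelia are the usual sources, and B cells are not known as a major one.

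Values are log2 signals from RMA, a method that corrects background, equalises the distributions of the arrays and summarises the probes of a set. A probe set was called above background if it lay over a level on both arrays. The level was the 95th percentile of 77 genes listed as restricted to other tissues, 5.73 in replicate 1 and 5.71 in replicate 2. A gene was represented by its brightest probe set. A level set in this way lets some reference genes pass, so a call does not by itself show expression. Above it were 4 of the 77 (5.19%), with means of 5.83 (HPX), 6.28 (TNNT3), 6.74 (SFTPB) and 11.24 (KRT10). All 3 probe sets of KRT10 were above, so this gene was not silent here. Probe sets differ in affinity, so a signal was set against the background level and not against the signal of another gene. All 11 measured B-cell markers were above this level, among them MS4A1, a B-cell surface protein (13.19 ± 0.10, SD, n = 2).

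Most collagen genes were not above background. Of the 36 genes, 5 were above on both arrays (13.9%), whereas 51.9% of all genes were. The share of the reference genes (5.19%) was set by the choice of the level, so it is no comparison. The 5 collagen genes were COL1A1 and COL5A2, which encode fibrillar chains, COL4A3 and COL4A4, which encode basement membrane chains, and COL9A2, which encodes a fibril-associated chain. By probe set the count was 6 of 83 (7.23%), against 47.2% of all probe sets with 1 symbol. The median signal of the collagen probe sets was 4.06, against 5.48 over all such probe sets. In a culture, few cells with a transcript and little transcript in each cell cannot be told apart. The count of 5 depended on the level: it was 14 with the 75th percentile of the reference genes, 9 with the 90th and 0 with the 99th. The shares of all genes at these levels were 63.9%, 58.3% and 37.1%. The 99th percentile, at 7.77 and 7.87, lay above every collagen probe set, the brightest of which had a mean of 7.41. With the keratin gene KRT10 left out of the reference genes, an alternative chosen after seeing the data, 2 genes were above the 99th percentile, COL1A1 and COL4A3, against 47.6% of all genes.

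**Figure D1:**
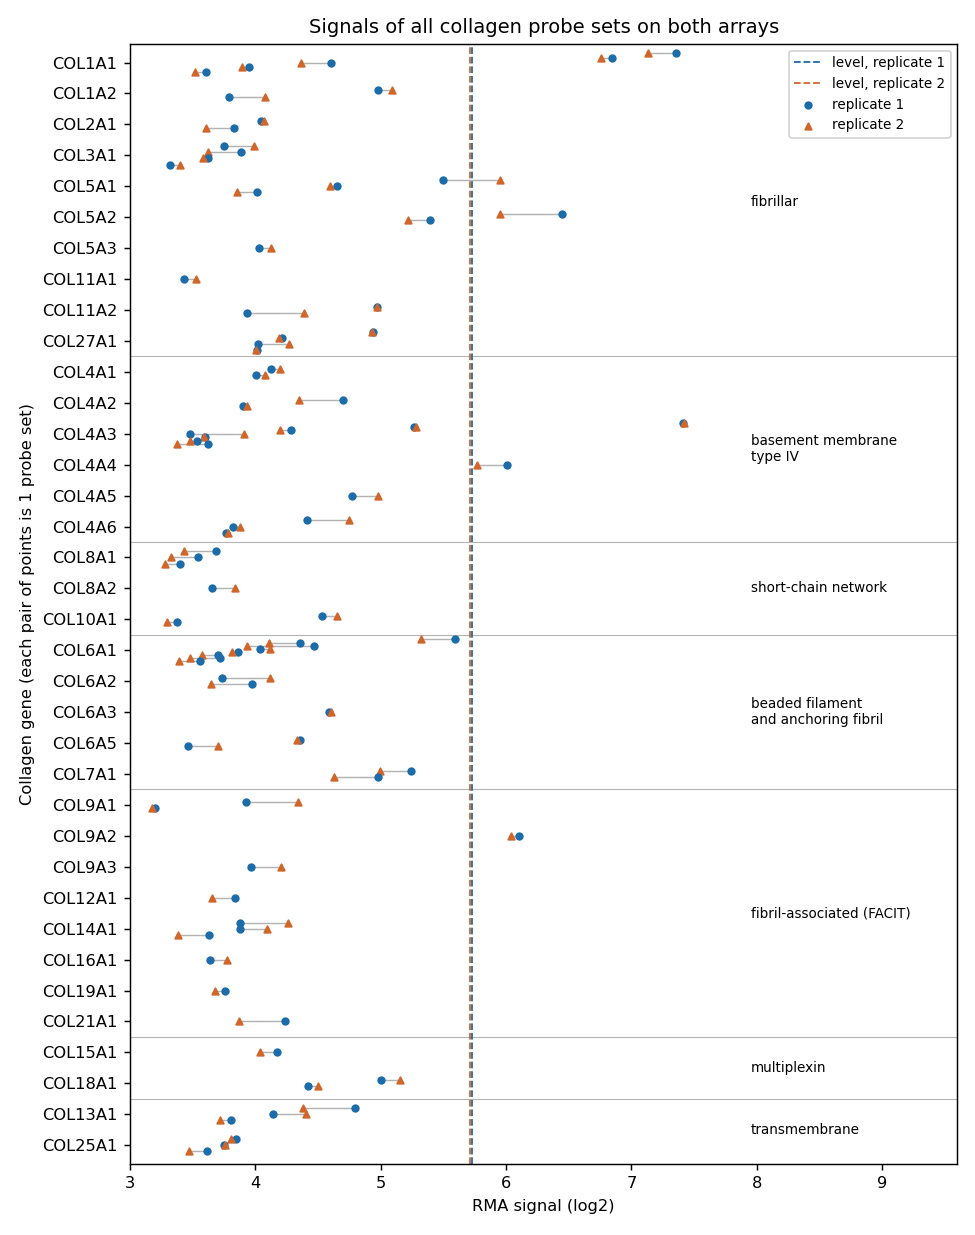
Log2 RMA signal of each of the 83 collagen probe sets on replicate 1 (circles) and replicate 2 (triangles), joined by a line and grouped by gene and structural family, with the background level of each array dashed. Nearly all lie to the left of the levels, and the exceptions are 2 probe sets of COL1A1 and 1 each of COL4A3, COL5A2, COL4A4 and COL9A2, with COL5A1 on 1 array.

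The brightest collagen probe set belonged to COL4A3, whose chain is a component of the basement membrane of the kidney filter and the target of the antibodies of Goodpasture disease. It lies head to head with COL4A4, which encodes a partner chain of the same molecule, and both were above background. The 2 genes are transcribed away from each other from start sites 419 bases apart on chromosome 2. The windows of 250 bases before each start are shown because they hold the DNA between this pair. The shorter stretch between the start sites of COL4A1 and COL4A2 on chromosome 13, the window before COL4A5 on chromosome X and that before COL9A2 on chromosome 1 are shown for comparison. Sequences are RefSeq's, build GRCh38.p14, written 5′ to 3′ on the strand given, and capitals mark the TATA box TATAAA, the CAAT box CCAAT and the GC box GGGCGG on either strand.
COL4A3, chr2:227164374-227164623, plus strand: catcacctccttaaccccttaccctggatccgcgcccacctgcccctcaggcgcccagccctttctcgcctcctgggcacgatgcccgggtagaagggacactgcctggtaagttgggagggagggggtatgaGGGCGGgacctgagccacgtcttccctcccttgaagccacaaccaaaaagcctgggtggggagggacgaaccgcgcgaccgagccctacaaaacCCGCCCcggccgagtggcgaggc
COL4A4, chr2:227164206-227164455, minus strand: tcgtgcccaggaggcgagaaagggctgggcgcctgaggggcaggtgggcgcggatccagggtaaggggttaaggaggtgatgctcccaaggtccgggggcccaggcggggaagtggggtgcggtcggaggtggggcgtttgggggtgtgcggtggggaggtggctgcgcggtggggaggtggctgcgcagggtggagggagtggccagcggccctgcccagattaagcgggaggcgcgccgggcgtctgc
COL4A1 to COL4A2, chr13:110307158-110307283, plus strand: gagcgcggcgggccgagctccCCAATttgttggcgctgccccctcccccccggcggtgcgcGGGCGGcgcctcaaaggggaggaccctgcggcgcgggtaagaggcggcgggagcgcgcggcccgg
COL4A5, chrX:108439588-108439837, plus strand: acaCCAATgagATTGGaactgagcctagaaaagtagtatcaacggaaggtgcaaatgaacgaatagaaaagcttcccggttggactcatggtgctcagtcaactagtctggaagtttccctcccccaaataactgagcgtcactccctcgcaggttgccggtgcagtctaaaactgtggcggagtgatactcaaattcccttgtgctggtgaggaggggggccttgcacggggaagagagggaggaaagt
COL9A2, chr1:40317287-40317536, minus strand: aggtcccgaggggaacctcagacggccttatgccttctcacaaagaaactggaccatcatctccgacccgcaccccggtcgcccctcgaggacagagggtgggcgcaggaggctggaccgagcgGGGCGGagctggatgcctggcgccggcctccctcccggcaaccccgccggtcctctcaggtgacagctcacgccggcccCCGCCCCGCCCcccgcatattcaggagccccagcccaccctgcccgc

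The windows of COL4A3 and COL4A4 share 82 bases. Type IV chains are encoded as 3 such head-to-head pairs: the start sites of COL4A1 and COL4A2 are 127 bases apart and those of COL4A6 and COL4A5 380. Both genes of a pair had the same call in all 3 pairs, taking the first start site listed where a gene has several, above background for COL4A3 and COL4A4 and not above for the other two. Among all measured head-to-head pairs with start sites within 500 bases, 67.8% of 630 pairs shared their call. Most collagen genes were not above, so any pair of them shares a call more often, and this share is no matched comparison. Of the 36 genes, 26 had promoter entries, 37 in all since some genes have several start sites. The 250 bases before the start held the GC box in 56.8% of these entries and in 42.6% of all 35116 promoters of that length. The shares were 27% and 32% for the CAAT box, and 16.2% and 10.7% for the TATA box. Matches of these motifs can overlap by 1 or 2 bases. The median GC content was 64.4% in the collagen entries and 58% over all promoters. The 3 genes above background with an entry were COL4A3, COL4A4 and COL9A2: the GC box was in the windows of COL4A3 and COL9A2, and neither of the other motifs was in any of the 3. A match describes the letters only, and so does its absence.

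COL4A3 was measured by 7 probe sets, which disagreed widely. Probe set 222073_at read 7.41 in replicate 1 and 7.42 in replicate 2, about 1.68 and 1.70 above the levels. Probe set 214641_at read 5.26 and 5.28, close under the levels. The other 5 ran from 3.37 to 4.28 over both arrays. The call of COL4A3 therefore rests on a single probe set that the arrays measured alike, and its sets spanned 3.91 between the brightest and dimmest mean, the widest range of any collagen gene. COL4A4 had a single probe set among those analysed, which read 6.01 in replicate 1 and 5.77 in replicate 2. In replicate 2 it stood only 0.05 above the level, and it was not above when the level was taken over all probe sets of the reference genes.

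The other type IV genes were not above background. COL4A5 encodes the chain that joins the products of COL4A3 and COL4A4 in one triple helix, and its single probe set read 4.77 and 4.98. COL4A1 and COL4A2 encode the chains found in nearly all basement membranes. The COL4A1 probe sets had means of 4.16 and 4.04, and the brighter COL4A2 set read 4.70 and 4.35. The 3 sets of COL4A6 ran from 3.76 to 4.75. Of the 3 chains of the kidney-type molecule 2 were thus above background.

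Among the fibrillar collagens 2 of 10 genes and 3 of 26 probe sets were above background. COL1A1 encodes the main chain of type I collagen, the collagen of bone and skin, and had 5 probe sets. Set 1556499_s_at read 7.35 in replicate 1 and 7.13 in replicate 2, and set 217430_x_at read 6.84 and 6.76. The other sets, 202310_s_at, 202312_s_at and 202311_s_at, had means of 4.48, 3.92 and 3.57 and were below the level on both arrays. The COL1A1 sets thus fell into a bright pair and a dim trio, 3.68 apart at the extremes. All 5 names end in _s_at or _x_at, which marks sets whose probes can match more than 1 transcript, and COL1A1 was not measured when such sets were left out. The probe sequences were not used here, so it was not checked which transcript each bright set reads, and 217430_x_at in particular may read a transcript that joins COL1A1 to another gene.

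COL1A2 encodes the partner chain of type I collagen and was not above background. Its sets read 4.98 and 5.09, and 3.79 and 4.08, so the 2 chains of type I had different calls. COL3A1, the reticular fibre collagen of skin and vessels, had 4 sets between 3.32 and 3.99. Fibroblasts typically make both together with COL1A1, and every set of either gene was below the level on both arrays.

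Of the type V genes 1 of 3 was above background, and another was above on 1 array. Type V collagen is a minor component that sets the diameter of type I fibrils. Of COL5A2, set 221730_at read 6.44 in replicate 1 and 5.95 in replicate 2, and set 221729_at read 5.39 and 5.22. Both were higher in replicate 1, and only the first was above background. COL5A1, the partner chain, had set 203325_s_at at 5.50 in replicate 1 and 5.95 in replicate 2, so it exceeded the level in replicate 2 alone. It was the 1 collagen probe set of 83 above on a single array (1.2%, against 1.62% of all probe sets). Its further sets had means of 4.62 and 3.94. COL5A3 read 4.03 and 4.13. COL5A1 would be counted without replicate 1, which would make the number of genes above background 6.

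The remaining fibrillar genes are known from cartilage and were not above background. COL2A1, the main cartilage collagen, had sets at means of 4.06 and 3.72. COL11A1 read 3.43 and 3.52. COL11A2 had a brighter set at 4.97 on both arrays, and COL27A1 had its brightest of 4 sets at 4.94 and 4.93.

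COL9A2 was the 1 fibril-associated gene of 8 above background. It encodes a chain of type IX collagen, which coats cartilage fibrils. The single probe set analysed for it read 6.10 in replicate 1 and 6.04 in replicate 2. Type IX is assembled from the products of COL9A1, COL9A2 and COL9A3. COL9A1 had sets at means of 4.13 and 3.19, and COL9A3 read 3.97 and 4.21. COL9A2 was above background under 11 of the 13 other settings with a count of genes, and missed both 99th percentile levels. It has 1 probe set, so taking the median or a share of a gene's sets could not change its call. COL4A3, with 7 sets, missed both of those settings and the 99th percentile, and was above under 10. COL12A1, COL14A1, COL16A1, COL19A1 and COL21A1, whose products bind fibres or basement membranes, had sets with means between 3.51 and 4.07.

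No gene of the other families was above background. The beaded filament and anchoring fibril family had 0 of 5 genes and 0 of 15 probe sets above. COL6A1 of this family, which encodes a microfibril chain of muscle and connective tissue, had 8 probe sets, the most of any collagen gene. Its set 213428_s_at read 5.59 and 5.32, just under the levels, and the other 7 had means between 3.48 and 4.23. COL6A2, COL6A3 and COL6A5 had sets with means from 3.58 to 4.60. COL7A1, which encodes the fibril that anchors the epidermis, had a brighter set at 5.24 and 4.99 and a dimmer one at 4.98 and 4.63.

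The short-chain network genes COL8A1, COL8A2 and COL10A1 had 6 sets with means from 3.34 to 4.59. COL8A1 and COL8A2 belong to the membrane under the corneal endothelium and to vessel walls, and COL10A1 to the growth plate. The multiplexins carry sugar chains in basement membranes. COL18A1, the source of the fragment endostatin, had sets with means of 5.08 and 4.46, and COL15A1 read 4.17 and 4.03. The transmembrane genes COL13A1 and COL25A1 had 6 sets with means from 3.54 to 4.59. These 4 families together held none of the 6 probe sets above background.

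Genes of 1 collagen type seldom shared a call above background. Of the 7 types with at least 2 measured chain genes, types I, IV, V and IX had some chains above and some not, and types VI, VIII and XI had none. No type had every measured chain gene above. Of the 6 pairs of neighbouring collagen genes on a chromosome, 5 had the same call, and the exception was COL3A1 (not above) beside COL5A2 (above). The 3 head-to-head type IV pairs are among these 6. Over all neighbouring protein-coding pairs 58.2% had the same call. That share is no matched comparison: 51.9% of all genes were above, but 13.9% of collagen genes, and genes mostly not above share a call more often. With so few pairs the count is a description only.

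Probe sets of a collagen gene agreed mostly in being dim. Of the 23 collagen genes with at least 2 probe sets, 20 had no set above background (87%, against 35% of all such genes), 3 had sets with differing calls (13%, against 32.4%) and 0 had every set above (against 32.6%). The 3 genes with differing calls were COL1A1, COL4A3 and COL5A2. The median range between the brightest and dimmest set of a gene was 0.81 for collagens and 1.43 for all genes with at least 2 sets. More probe sets give a gene more chances of a bright one: over all genes 41.5% of those with 1 set were above background, 60.1% of those with 2 and 71.3% of those with 3 or more. Among collagens the counts were 2 of 13, 1 of 12 and 2 of 11. The share of collagen genes lay below that of all genes in each of these classes. With the median of a gene's sets in place of the brightest, 2 collagen genes were above, COL4A4 and COL9A2, against 47.3% of all genes. Each of these has 1 probe set, so the median could not change its call. No collagen gene with at least 2 sets was above by its median.

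**Figure D2:**
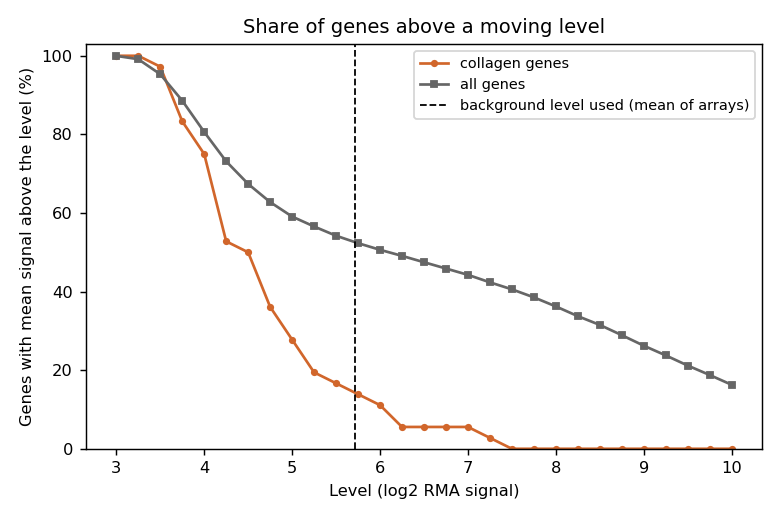
Percentage of the 36 collagen genes (circles) and of all 16716 genes (squares) whose mean log2 RMA signal exceeds a level moved along the horizontal axis, with the mean of the background levels of the arrays dashed. The curves start together at the dimmest signals and part above a level of 4, and no collagen gene exceeds 7.5 while 40.6% of all genes do.

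The replicates measured the collagen probe sets alike. A difference of more than 1 in log2 signal was seen for 0 of the 83 collagen probe sets, and for 0.0509% of all probe sets. None of the 83 passed 0.58 either. Differences (replicate 2 minus replicate 1) ran from -0.54 for set 212937_s_at of COL6A1 to 0.46 for set 213870_at of COL11A2, both below background. The next were COL5A2 (-0.49, set 221730_at) and COL13A1 (-0.41, set 208535_x_at) in one direction and COL5A1 (0.45, set 203325_s_at) and COL4A3 (0.43, set 216896_at) in the other. Of these 6 sets only that of COL5A2 was above background on both arrays. These sets of COL5A2 and COL5A1, which encode partner chains, differed in opposite directions. The further COL5A1 sets, 212488_at (-0.05) and 212489_at (-0.16), both below background, were lower in replicate 2, as were both COL5A2 sets. The COL5A1 sets thus did not share a direction.

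Of the 83 sets 36 were higher in replicate 2 (43.4%, against 48.3% of all probe sets), and the median difference was -0.02. Among the 6 sets above background only that of COL4A3 was not higher in replicate 1, and it differed by 0.01. The median SD of a pair was 0.10 for the 77 collagen sets not above background, and likewise 0.10 for all probe sets not above. For the 6 collagen sets above it was 0.11, against 0.05 for all probe sets above. These 6 had means from 5.89 to 7.41, whereas all probe sets reached 15.01, so the comparison is not matched for signal. Pearson r between the arrays was 0.968 across the 83 sets (Spearman rho 0.921), against 0.997 across all probe sets with 1 symbol. Probe sets are not independent replicates, and the narrow range of the collagen signals enters r.

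**Figure D3:**
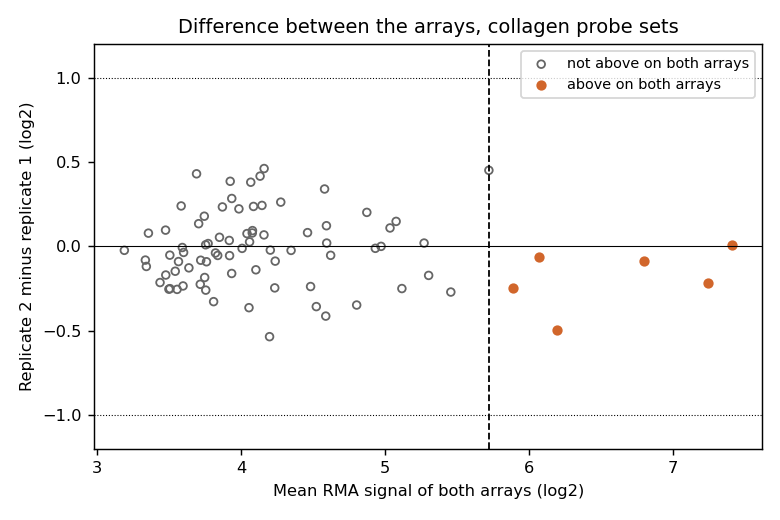
Difference between the arrays (replicate 2 minus replicate 1, log2) against the mean log2 RMA signal for the 83 collagen probe sets, with those above background on both arrays filled, the mean background level dashed and differences of 1 in either direction dotted. Every set lies between -0.54 and 0.46.

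Genes that modify or fold collagen chains inside the cell were above background more often than the chains. Of 13 measured hydroxylases and glycosyltransferases of collagen 9 were above (69.2%). They included P4HA1 (9.74 ± 0.05) and P4HB (11.32 ± 0.08), the subunits of the enzyme that hydroxylates proline and so stabilises the triple helix, and the lysyl hydroxylase PLOD1 (8.10 ± 0.23). P4HA2 (4.70 ± 0.27), P4HA3 (4.41 ± 0.03), P3H3 (4.04 ± 0.17) and P3H4 (3.47 ± 0.01) were not above. P4HA2 and P4HA3 encode alternatives to the P4HA1 subunit, so 1 of the 3 such subunits was above. Without _x_at and _s_at probe sets 4 of 8 genes of this list were above, against 50.2% of all genes, so the list then did not stand above that share.

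Of 18 genes of folding and secretion 16 were above (88.9%). SERPINH1, which encodes the collagen chaperone HSP47, read 6.60 and 6.45, PPIB, a prolyl isomerase, had a mean of 13.37 ± 0.05 and FKBP14 of 6.15 ± 0.09. Many members of this list, such as the general chaperone HSPA5, also serve proteins other than collagen. FKBP10, a prolyl isomerase with a role in bone, was not above (3.78 ± 0.02), and CREB3L1, a transcription factor that turns on collagen secretion genes, was above in replicate 1 alone (5.95 and 5.42).

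Genes of procollagen processing, crosslinking and collagen breakdown were less often above background than all genes. Of 16 genes of procollagen processing and crosslinking 1 was (6.25%), the general proprotein convertase FURIN (6.25 ± 0.08). BMP1, which trims the end of procollagen, had 7 probe sets of which none was above, and the crosslinking enzyme LOX had a mean of 3.87 ± 0.04. Of 16 genes of collagen breakdown 4 were above (25%): the cathepsins CTSK (6.21 ± 0.24), CTSB (8.23 ± 0.02) and CTSS (10.46 ± 0.02) and the prolidase PEPD (8.64 ± 0.19). None of the matrix metalloproteinase genes on this list was above on both arrays.

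Of 16 collagen receptor genes 4 were above (25%). These were the integrin chains ITGB1 (9.83 ± 0.02) and ITGAV (8.78 ± 0.01), the adhesion receptor CD44 (12.27 ± 0.01) and the collagen receptor kinase DDR2. DDR2 read 7.07 and 6.84, and both its probe sets were above. The alpha chains that pair with ITGB1 to bind collagen, ITGA1 (4.35 ± 0.11), ITGA2 (4.10 ± 0.01), ITGA10 (5.08 ± 0.03) and ITGA11 (4.11 ± 0.05), were not above. Of 28 regulators of collagen genes 19 were above (67.9%), such as the growth factor gene TGFB1 (9.16 ± 0.01), its receptor TGFBR1 (8.40 ± 0.02) and the signal carrier SMAD2 (10.23 ± 0.03). The 9 not above included TGFB2 (3.92 ± 0.10), TGFB3 (5.04 ± 0.03) and the receptor gene TGFBR2 (4.74 ± 0.01). Without _x_at and _s_at probe sets 13 of 23 regulators were above, against 50.2% of all genes, so the list then stood closer to that share.

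Of 25 measured genes listed for other proteins with a collagen-like stretch 2 were above (8%), EMID1 (6.85 ± 0.05) and EMILIN2 (7.25 ± 0.10), each by 1 of 2 probe sets. This list also holds ACHE, whose product binds the collagen tail encoded by COLQ, and neither was above. The complement genes C1QA, C1QB and C1QC, whose products carry collagen-like stems, had means of 3.68, 3.68 and 3.77.

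Markers of the cells that usually make collagen were mostly not above background. Of 17 fibroblast markers 4 were (23.5%): FBN1 (8.67 ± 0.11), SPARC (7.72 ± 0.10), DCN (5.80 ± 0.01) and ACTA2 (9.89 ± 0.07). DCN was above by 1 of 4 probe sets, an _x_at set at 5.79 and 5.80, close over the levels. SPARC and ACTA2 were each above by 1 of 2 sets, and FBN1 by both of its 2. SPARC is a collagen-binding protein and DCN a proteoglycan of collagen fibrils. LUM (3.11 ± 0.09), PDGFRB (4.26 ± 0.07) and POSTN (3.79 ± 0.10) were among the 13 that were not. Of 11 cartilage and bone markers 1 was above, SOX9, the transcription factor of cartilage (8.01 and 7.83, by both its probe sets), whereas ACAN (4.71 ± 0.05) and COMP (3.83 ± 0.07) of the cartilage matrix were not. PECAM1 (7.19 ± 0.02), also made by white blood cells, was the 1 of 10 endothelial markers above, and CDH1 (7.01 ± 0.04) and ELF3 (6.93 ± 0.11) were the 2 of 12 epithelial markers. The part of such cells in the collagen signals was not tested.

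**Figure D4:**
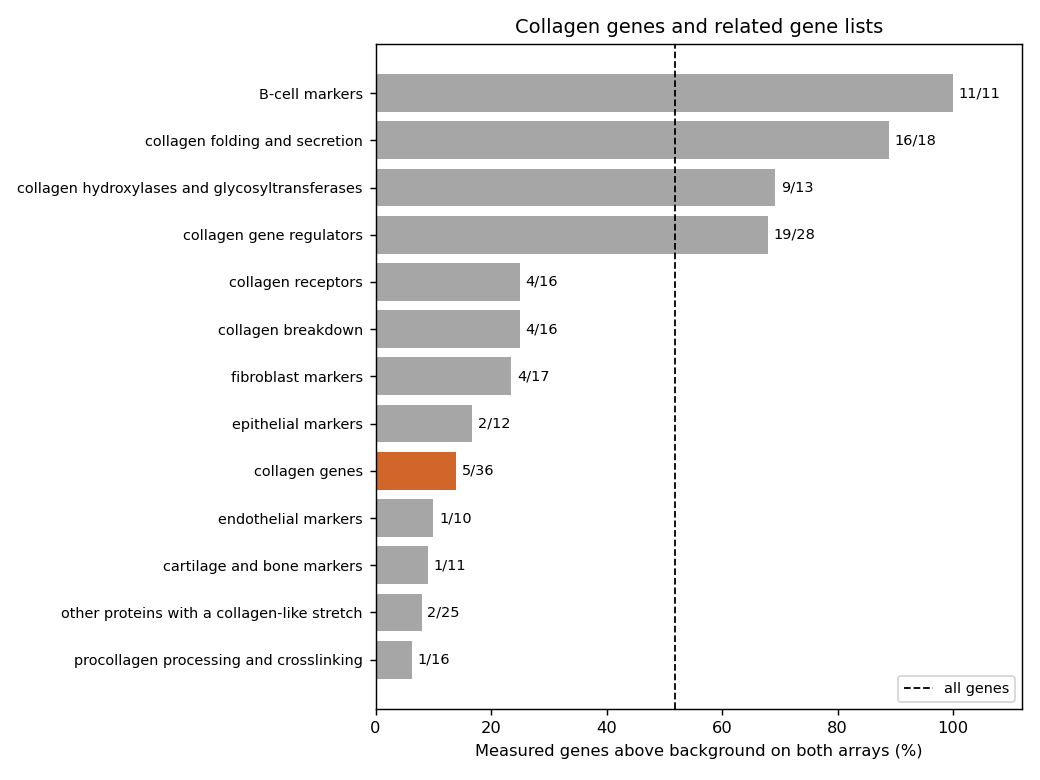
Percentage of measured genes above background on both arrays for the collagen genes (coloured bar) and 12 related lists (grey bars), with the count at the end of each bar and the share over all genes dashed. With all probe sets used, folding and secretion, hydroxylase and regulator genes stand above the share of all genes (51.9%), and collagen genes (13.9%), crosslinking genes and markers of other cells stand below it.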

How the data were processed

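The authors deposited 1 intensity per probe set and array, made with RMA per the submitters' processing notes, with no version. RMA usually gives log2 values, but these ran from 6.29 to 33093 and are linear, so log2 was taken here. Genome build and detection calls are not given in the sources used here. Of 36289 probe sets 29493 had 1 gene symbol, 1407 several and 5389 none, per the platform annotation. Symbols were updated by Entrez ID (29461 matched) from RefSeq (GRCh38.p14). The table ends partway through the identifiers, so further probe sets, and 8 of 44 collagen genes of the family list, were not analysed here.

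The background level was the 95th percentile, on each array, of the brightest probe sets of 77 measured genes taken as tissue-restricted (85 listed). No test was run, since there is 1 group. The number of arrays limits the precision. The level, the calls and the quantile step were tested on simulated data (numpy 2.4.6, pandas 2.3.3). Simulated on and off genes lay far apart and all simulated reference genes were off, so calls near the level were not tested. Members, lists and the rule for named genes were chosen with earlier results of these data known. Named were all collagen genes, and from each list its first 3 members above background and any group of at most 5; further genes were chosen after their values were seen. Alternatives changed the level, the reference genes, the probe sets, the normalization, the minimum difference or the array used.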

Additional observations from a re-analysis of the deposited data

How the results depend on the processing

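Of 78 recomputed values 41 stayed within 1.5 times the reported count. With the 75th percentile of the reference genes as level (4.57 and 4.59), 14 collagen genes, 19 probe sets and 5 of 7 families were above background, as were 7 fibroblast, 3 endothelial, 5 epithelial and 3 cartilage and bone markers, 6 processing, 7 breakdown and 7 receptor genes. With the 90th (4.99 and 4.94) the counts were 9 genes and 12 probe sets. With the 99th (7.77 and 7.87) they were 0 genes, 0 probe sets and 0 families, 2 fibroblast markers, and 0 endothelial, epithelial, cartilage and bone, processing and collagen-like genes. That percentile was set by KRT10: with KRT10 left out, a setting chosen after seeing the data, 2 collagen genes and 3 probe sets were above. With the median of a gene's probe sets 2 genes were above, and when a share of at least 0.5 of its sets had to be above, 3. Both counts include COL4A4 and COL9A2, which have 1 probe set each and whose calls these settings could not change. Leaving out either array gave 5 to 6 genes and 6 to 7 probe sets.

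Without _x_at and _s_at probe sets the reference level itself fell to 5.02 and 4.93. Counts were then 1 epithelial and 0 cartilage and bone markers, 4 hydroxylases, 4 processing genes and 1 collagen-like gene, and 5 of 28 collagen genes were above, COL7A1 entering and COL1A1 no longer measured. With the level kept (chosen after seeing the data) they were 1 fibroblast, 0 epithelial and 0 cartilage and bone markers, 4 hydroxylases, 2 breakdown genes, 12 regulators and 1 collagen-like gene, and 4 collagen genes. These settings leave fewer genes to measure. With olfactory receptor genes as reference 7 collagen genes were above, and a second quantile normalization left the count at 5. No array difference passed 1 under any setting.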
